A study of Mus musculus with 38 samples.

Results

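The genes described here mark the mesothelium, the single sheet of flat cells that covers visceral fat pads and lines the body cavities. They are Msln, Upk3b, Upk1b, Lrrn4, Gpm6a, Krt8, Krt18, Krt19, Wt1 and Bnc1. They were chosen by name: every probe that the array design gives 1 of these 10 gene names was taken, which gave 11 probes out of 40628, Krt8 having 2. The samples were stromal vascular cells from the epididymal fat of C57BL/6J mice, labelled by the submitters as infiltrating macrophages, and each was hybridised to 1 single-colour Agilent array, 38 arrays in all. Weaned mice, 3 to 4 weeks old at the start, were placed on 5 diets. The low fat control diet (LFC) drew 10% of its calories from fat, and the high fat control diet (HFC) drew 60% and carried added sucrose. HF5, HF20 and HF75 added a plant-based formulation named KAL-1 to that high fat diet, at 5, 20 and 75 µg in turn. LFC and HFC had 10 arrays each, at days 6, 10 and 14 and at weeks 0, 3, 6, 9, 12, 15 and 18, and each dose had 6 arrays, from week 3 to week 18. There was 1 array for each diet and time point, so a diet is compared with another over time points, and those p-values measure the spread between time points. The labels do not say whether the RNA of several animals was pooled on an array.

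Mesothelial cells secrete lubricating glycoproteins and keep an epithelial character, with keratin filaments and uroplakins at the surface, although they arise from mesoderm. Visceral fat carries this covering and subcutaneous fat does not, and in the developing depot the layer expresses Wt1. A preparation of stromal vascular cells can hold sheets of mesothelium that detach when the depot is digested. In a bulk sample, fewer cells of a type and less RNA per cell cannot be told apart.

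Levels are log2 of the processed signal minus the log2 75th percentile of that signal on the same array, so that 0 is the 75th percentile and a step of 1 is 2-fold. A level is compared only with levels of the same probe. The 75th percentile ran from 25.8 scanner units on the HF5 week 12 array to 1983 on the HFC week 0 array, and the share of spots well above background ran from 40.1% to 91.6%. The HFC array was the brighter of the pair at 9 of 10 time points. The macrophage genes Emr1 and Cd68 were well above background on all 38 arrays, and the mean level of 10 macrophage genes ran from -0.89 to 2.52. Several arrays stood apart in the genes described here. Of the 11 probes, 4 to 7 were not well above background on LFC days 6 and 10 and HFC, HF5 and HF20 week 6. This was so for 4 on HF75 week 3 and for 9 on HF5 week 12, the dimmest array. For 4 arrays, HF5 and HF20 at weeks 15 and 18, the diet label and the source name give different doses, and the source name was used.

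All 11 probes were well above background on 29 of the 38 arrays. On HF5 week 12 only 2 of the 11 were, on LFC day 10 there were 4, on LFC day 6 there were 5, and on HF20 week 6 there were 6. HFC week 6, HF5 week 6 and HF75 week 3 each had 7, LFC week 18 had 9 and LFC week 3 had 10. The share of all spots well above background was 64.5% on LFC day 6 and 65.0% on LFC day 10, against 65.8% on LFC week 6, where all 11 probes were detected.

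**Figure D1:**
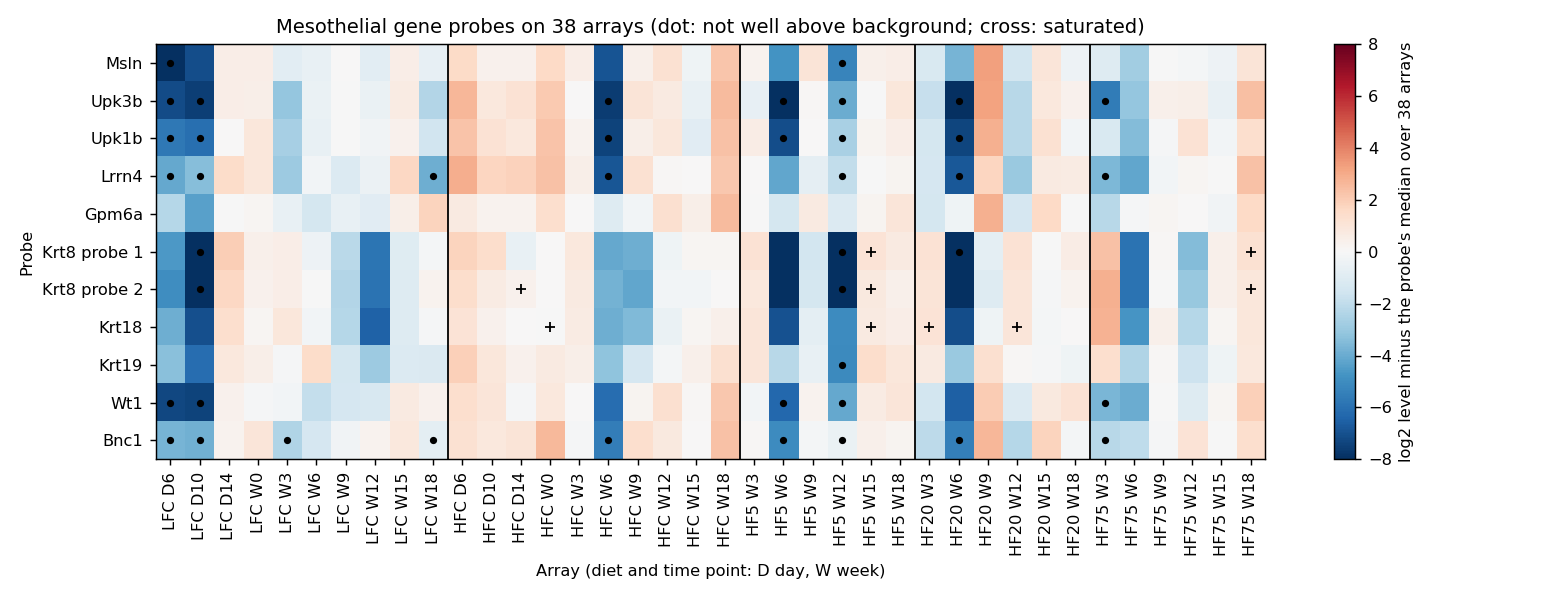
Heat map of 11 probes (rows) on 38 arrays (columns, grouped by diet and ordered by time), coloured by the log2 level minus the median of that probe over all arrays. Dots mark spots not well above background and crosses mark saturated spots; the LFC day 6 and day 10 columns and the HFC, HF5 and HF20 week 6 columns are blue in nearly every row, while the keratin rows are also blue on LFC week 12.

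Msln encodes mesothelin, a glycoprotein anchored to the mesothelial cell surface. On the LFC arrays its lowest level was -5.84, its median 2.21 and its highest 3.38. On the HFC arrays the same 3 values were -4.07, 3.31 and 5.05. The LFC arrays of days 6 and 10 and the HFC array of week 6 lay far below the rest, and the ranges of LFC and HFC overlapped over most of their length. The HF5 arrays ran from -2.46 to 3.88 with a median of 3.17, the HF20 arrays from -0.89 to 6.14 with a median of 2.01, and the HF75 arrays from 0.08 to 3.84 with a median of 2.56. The highest Msln level of the series was on HF20 week 9.

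Upk3b and Upk1b encode uroplakins, membrane proteins best known from the bladder lining that are also made by mesothelium. Upk3b ran on the LFC arrays from -7.44 through a median of -0.46 to 0.74. On the HFC arrays it ran from -7.52 through 0.995 to 2.72. At the bottom of each range the spots were not well above background: this was so for Upk3b on the LFC arrays of days 6 and 10 and on HFC week 6. Upk1b behaved alike, from -7.34 through -1.76 to -0.42 on the LFC arrays and from -8.75 through -0.42 to 1.02 on the HFC arrays. The uroplakins of the bladder that are not members, Upk1a, Upk2 and Upk3a, had a mean level between -8.53 and -3.41, and 1 of these 3 genes was well above background on 19 or more arrays.

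Lrrn4 encodes a membrane protein with leucine-rich repeats, and Gpm6a a membrane glycoprotein of the proteolipid family first studied in neurons. Lrrn4 ran from -5.88 through -2.57 to -0.14 on the LFC arrays and from -8.65 through -0.30 to 1.101 on the HFC arrays. Gpm6a was the only member beside Krt18 that was well above background on all 38 arrays. Its LFC levels ran from -3.85 through -0.09 to 2.28 and its HFC levels from -0.53 through 0.89 to 3.01. Gpm6a moved less than the other surface genes. HFC week 6 held the lowest HFC level of Msln, Upk3b, Upk1b, Lrrn4 and Gpm6a alike. There Gpm6a was at -0.53, close to the -0.91 of LFC week 6, which itself lay below the LFC median.

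Krt8 and Krt18 encode the paired filament proteins of simple epithelia, and Krt19 another keratin of simple epithelia. Of the 2 Krt8 probes, the first (ending P242399) ran from -6.20 through 4.15 to 6.81 on the LFC arrays and from 0.72 through 4.92 to 6.61 on the HFC arrays, and the second (ending P242400) tracked it with r = 0.99 over 38 arrays. Krt18 ran from -1.83 through 4.58 to 6.52 on the LFC arrays and from 1.26 through 5.28 to 6.31 on the HFC arrays. Krt19 ran from -3.50 through 1.45 to 4.07 and from -0.64 through 2.99 to 4.50. The first Krt8 probe was saturated on 2 arrays, the second on 3 and Krt18 on 4, so the levels on those arrays are bounds from below, while the highest level of each of these probes was on an array where it was not saturated. The keratins had a low point that the surface genes did not share: on LFC week 12 the first Krt8 probe was at -1.04 and Krt18 at -1.29, while Msln stood at 1.9997 and Upk3b at -0.47. They also had a high point of their own: on HF75 week 3 the first Krt8 probe was at 7.19 and Krt18 at 7.98, the highest of all 38 arrays, while Upk3b, Lrrn4, Wt1 and Bnc1 were not well above background on that dim array.

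Wt1 encodes a zinc finger transcription factor of the mesothelium and its precursors, and Bnc1 encodes basonuclin, a zinc finger protein of epithelia and mesothelium. Wt1 ran from -7.20 through -0.55 to 0.91 on the LFC arrays and from -5.86 through 0.73 to 2.35 on the HFC arrays. Bnc1 ran from -7.09 through -3.77 to -2.25 and from -8.79 through -2.30 to -0.67. It was the member most often near background, being well above it on 29 of 38 arrays.

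**Figure D2:**
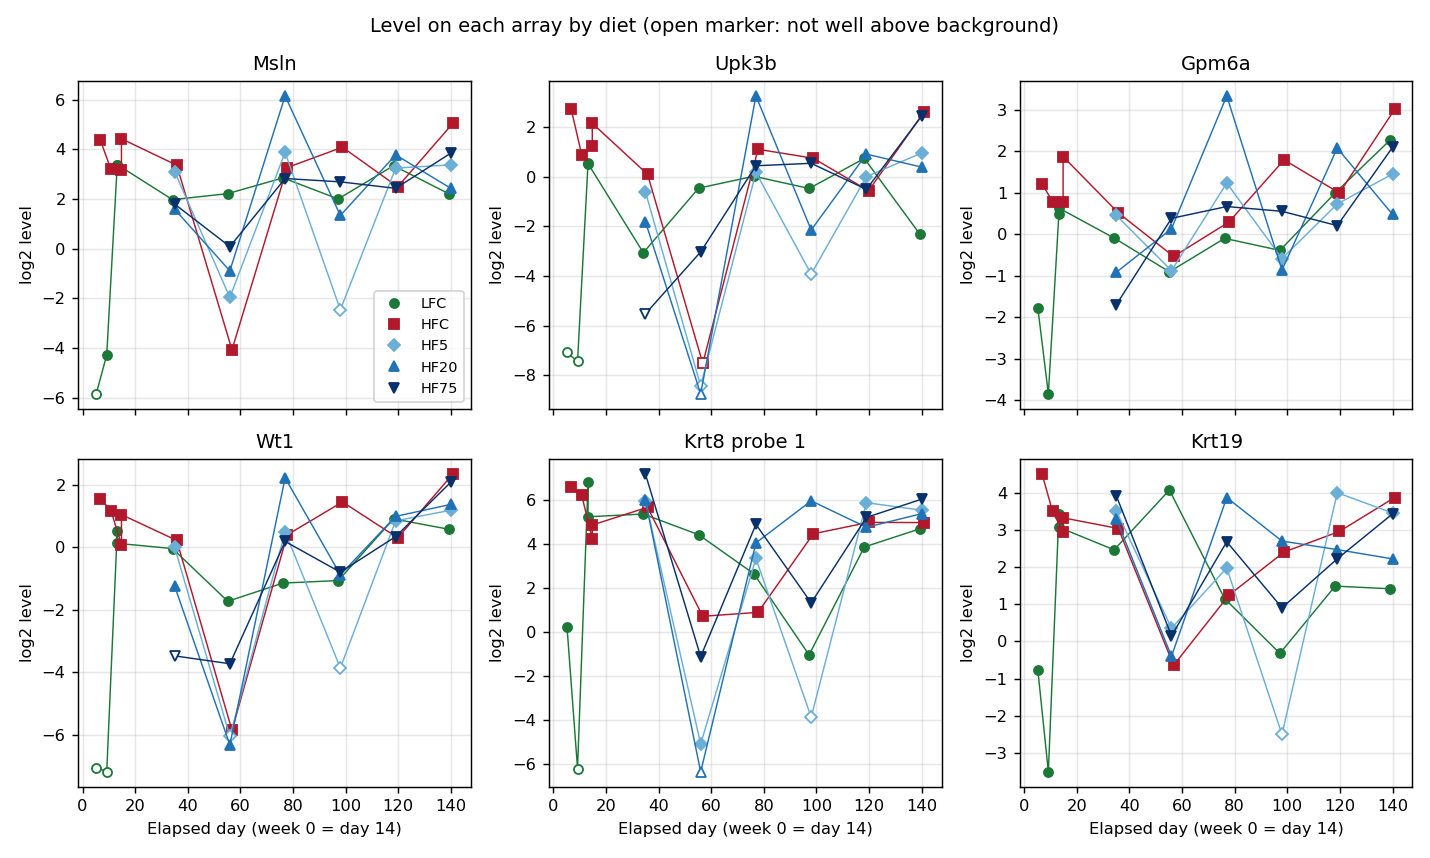
Level of 6 members (log2 relative to the 75th percentile of the array) against elapsed day, with 1 point per array, 1 colour and marker per diet, and open markers for spots not well above background; LFC and HFC points are shifted slightly sideways. LFC is low at days 6 and 10. At week 6 (day 56) the 4 high fat diets lie below LFC in every panel but that of Gpm6a, where LFC is the lowest and the dip is the shallowest.

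The first question of the design is how high fat feeding changed these cells relative to the low fat diet at the same time. At day 6 Msln was at -5.84 on the LFC array, where it was not well above background, and at 4.36 on the HFC array, at least 589-fold higher. Wt1 was at -7.06 and 1.56, at least 85.0-fold higher, and Krt8 by its first probe at 0.23 and 6.61, which is 83.3-fold. At day 10 Upk3b was at -7.44 and 0.88, at least 66.7-fold higher, and the first Krt8 probe at -6.20 and 6.21, at least 2683-fold higher. Where a spot was not well above background, the fold is a bound, set against the higher of its own level and the lowest level that was well above background on the same array. All 11 probes were at least 2-fold higher in HFC at day 6 (14.8% of the probes tested were) and at day 10 (20.1%, while 23.3% were at least 2-fold lower), with medians of 6.40 and 7.38. The LFC and HFC arrays of each of these days shared a slide and a scan day.

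From day 14 on, single members were still low on some LFC arrays: Lrrn4 was at -4.68 on week 3 and the first Krt8 probe at -1.04 on week 12. The median difference over the 11 probes was -0.20 at day 14, with 0 probes at least 2-fold higher (10.3% of those tested were) and 3 at least 2-fold lower (8.38%), and 1.04 at week 0, with 6 higher (8.65%) and 0 lower (4.85%). It was 0.61 at week 3 (5 higher, 10.9%, and 0 lower, 7.32%), 0.42 at week 9 (4 higher, 6.39%, and 3 lower, 6.91%) and -0.61 at week 15 (3 higher, 9.81%, and 3 lower, 8.39%). At week 12 it was 2.18 (9 higher, 31.1%, and 0 lower, 16.5%), which the keratins led. The LFC and HFC arrays of week 12 differed in other genes too. The mean of 8 immediate early genes, among them Fos and Jun, was 0.09 in LFC and 4.83 in HFC, and that of 9 adipocyte genes 4.77 and 1.92. HFC week 12 also had 4850 outlier spots, which were left out. The part of this in the week 12 difference was not tested. At week 18 the median difference was 2.45 (7 higher, 19.6%, and 0 lower, 14.2%), which the surface genes led. Lrrn4 was at -5.67 on LFC week 18, not well above background, and at 0.38 on HFC week 18.

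At week 6 the direction was the opposite. Msln was at 2.21 on the LFC array and at -4.07 on the HFC array, 77.8-fold lower in HFC. Upk3b was at -0.46 and -7.52, at least 69.1-fold lower, Wt1 at -1.73 and -5.86, 17.5-fold lower, and the first Krt8 probe at 4.43 and 0.72, 13.1-fold lower. Of the 11 probes, 10 were at least 2-fold lower in HFC (14.4% of the probes tested were) and 0 at least 2-fold higher (8.58%), and the exception was Gpm6a, at -0.91 and -0.53. The median was -4.23. The other high fat arrays of week 6 lay below LFC too: Msln was at -1.96 in HF5, -0.89 in HF20 and 0.08 in HF75, and the first Krt8 probe at -5.09, -6.35 and -1.12. So LFC held the highest level of the 5 diets at week 6 in every member except Gpm6a, whose LFC level was the lowest of the 5. The LFC, HFC, HF5 and HF20 arrays of week 6 were scanned on the same day and lay on different slides.

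**Figure D3:**
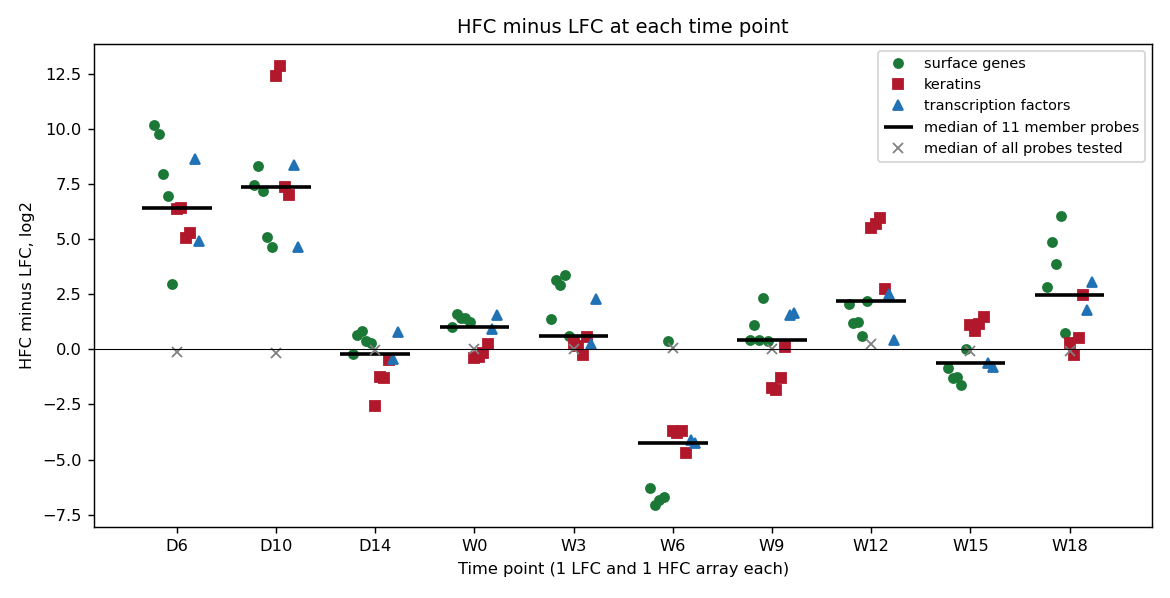
HFC minus LFC difference (log2) at each of 10 time points for the 11 probes, coloured by class, with a bar at their median and a cross at the median of all probes tested. The bars stand at 6.40 and 7.38 at days 6 and 10 and at -4.23 at week 6, while the median of all probes stays between -0.14 and 0.27.

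Over the 10 time points together, with time point as a block and limma's moderated test, the 11 probes were higher in HFC by a median of 1.78 (1.33 to 2.24), against 0.01 for all 31026 probes tested, of which 50.8% lay above 0. None of the 11 passed at an adjusted p of 0.05, and neither did any other probe (0% called). At an unadjusted 0.05, 1 of the 11 passed, against 9.09% of all probes. Under normexp and quantile scaling 5 did, where 2454 of all probes passed, and with the brightness covariate 0 did, where 1919 passed. Without days 6 and 10 and week 6, a setting chosen after seeing the data, 5 did, where 1604 of all probes passed. The 1 in the main fit was Gpm6a, higher in HFC by 1.34 with a standard error of 0.43 and an adjusted p of 0.545 in limma. Gpm6a was higher at 10 of 10 time points, though at week 15 its levels were all but equal, 0.997 in LFC and 0.998 in HFC. Upk3b had the largest difference, 2.24 with a standard error of 1.34 (adjusted p = 0.571, limma), and was higher at 8 of 10 time points. Msln differed by 1.81 with a standard error of 1.26 (adjusted p = 0.603, limma), and was higher at 7 of 10. Wt1 differed by 1.89 with a standard error of 1.105 (adjusted p = 0.565, limma). The first Krt8 probe differed by 1.76 with a standard error of 1.38 (adjusted p = 0.633, limma), higher at 6 of 10. Upk1b (1.78), Lrrn4 (1.79), Krt19 (1.46) and Bnc1 (1.44) were each higher at 8 of 10 time points, with adjusted p from 0.550 to 0.589 in limma. Days 6 and 10 carried most of this: without them the median was 0.30, and without days 6 and 10 and week 6 it was 0.96. With array brightness as a covariate it was 0.21.

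The slope of the HFC minus LFC difference on time was negative for all 11 probes (53.1% of all probes were above 0), with a median of -0.16 log2 per week, and 0 of them passed even at an unadjusted 0.05 (4.37% of all probes did). Within LFC the slope was positive for all 11 (49.2% of all probes), with a median of 0.13 per week. Only Gpm6a, with a slope of 0.15 per week with a standard error of 0.06 (adjusted p = 0.997, limma), passed at an unadjusted 0.05 there (3.89% of all probes did). Within HFC the median slope was -0.03 per week, with 4 probes above 0 (53.9% of all probes were) and 7 below and 0 past an unadjusted 0.05 (7.87% of all probes were). Without days 6 and 10 the median slope of the difference was 0.09 and that within LFC was -0.04, both of the opposite sign.

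Weeks 3 to 18 hold all 5 diets and were fitted together with week as a block. HFC minus LFC had a median of 0.33 over the 11 probes, from -0.07 for Msln to 0.71 for Gpm6a, and 10 of 11 were above 0 (54.4% of all 33709 probes tested were). Gpm6a was higher in HFC at 6 of 6 weeks, a count that includes the week of all but equal levels given above. Its difference had a standard error of 0.56 and an adjusted p of 0.9996 in limma. 0 of the 11 passed at an adjusted or an unadjusted 0.05 (0% and 3.22% of all probes). Leaving out week 6 raised the median to 1.22, and leaving out week 12 turned it to -0.17.

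The second question of the design is whether KAL-1 changed the response to the high fat diet. Against HFC, HF5 was lower for all 11 probes, with a median of -0.64 (47.3% of all probes were above 0). HF20 was lower for 8 of 11, with a median of -0.32 (56.3% of all probes above 0), and HF75 for 6 of 11, with a median of -0.09 (54.1%). In no dose did any of the 11 pass at an adjusted 0.05 (0% of all probes) or at an unadjusted 0.05 (4.80% of all probes did in HF5, 1.57% in HF20 and 674 of 33709 in HF75). Upk3b stood -1.38 from HFC in HF5, -0.77 in HF20 and -0.35 in HF75, each with a standard error of 1.26, and for Krt18 they were -0.62, 0.22 and 0.68 with a standard error of 1.08. The 3 comparisons share the HFC arrays. At weeks 3, 6, 9 and 18 at least 1 dose was scanned on another day than HFC. The order of the doses was not stable: without weeks 9 and 12 HF5 had a median of -0.26, HF20 of -0.63 and HF75 of 0.13, and with scan day as the block they were -1.10, -0.61 and -0.44. The difference between doses was not tested for each gene. Part of the HF5 value came from its week 12 array, on which all 11 levels were below those of HFC week 12 and 9 of the 11 spots were not well above background. Msln was at -2.46 and 4.08, at least 54.1-fold lower. For Lrrn4 the bound was 1.01-fold, and for Bnc1 no fold can be given, since its HFC level lay below the lowest level that was well above background on HF5 week 12. Without HF5 week 12 and HF75 week 3 the HF5 median was -0.49 and the HF75 median 0.14.

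The mean of the 3 doses minus HFC had a median of -0.51, with 10 of 11 probes lower and Krt18 at 0.09 (51.9% of all probes were above 0). Upk3b, with -0.83 and a standard error of 1.03, had an adjusted p of 0.9999 in limma, and 0 of the 11 passed at an unadjusted 0.05 (1.80% of all probes did). The mean of the 4 high fat diets minus LFC had a median of -0.13, with 5 above 0 (57.5% of all probes were) and 6 below, and 0 passed at an adjusted or an unadjusted 0.05 (0% and 8.16% of all probes). Without week 6 the second median was 0.99.

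The HF20 minus HFC difference swung from week 9 to week 12. At week 9 HF20 lay above HFC in all 11 probes, 10 of them at least 2-fold (24.8% of the probes tested were). Msln was at 6.14 and 3.26 and Upk3b at 3.26 and 1.11. These arrays were scanned on different days and differed in other genes too. The mean of the immediate early genes was 5.14 on HF20 week 9 and 0.42 on HFC week 9, and that of the adipocyte genes 2.37 and 5.10. The part of this in the week 9 difference was not tested. At week 12 the surface genes of HF20 lay below HFC, with Msln at 1.34 and 4.08, and the keratins above, with the first Krt8 probe at 5.97 and 4.47. Of the 11 probes, 7 were at least 2-fold lower there (20.7% of those tested were) and 3 were at least 2-fold higher (17.0%).

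The members fell into 2 patterns across the 38 arrays. Pearson's r was between 0.88 and 0.99 for the 6 pairs of keratin probes, with a median of 0.93. It was between 0.57 and 0.97 for the 21 pairs without a keratin, with a median of 0.90, and between 0.43 and 0.80 for the 28 pairs of a keratin with another member, with a median of 0.67. The closest pair of different genes outside the keratins was Upk3b with Upk1b, at 0.97, followed by Upk1b with Bnc1 at 0.96 and Upk3b with Bnc1 at 0.95. Krt8 by its first probe and Krt18 reached 0.97. Gpm6a with Krt18, at 0.43, was the loosest pair. By ranks (Spearman's rho) Krt18 and Bnc1 reached 0.22 and Upk1b and Bnc1 0.94. These are descriptions over arrays that differ in brightness and share time points, and the few arrays near background weigh on Pearson's r.

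**Figure D4:**
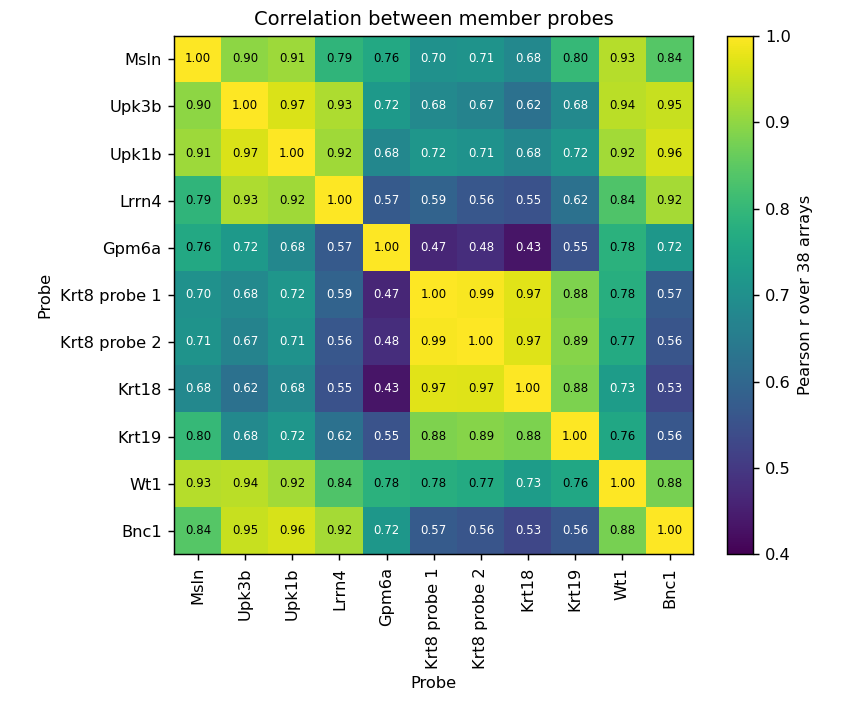
Pearson's r between every 2 of the 11 probes over 38 arrays, printed in each cell. The keratin block holds values of 0.88 and above, and the lowest values lie where Gpm6a, Bnc1 or Lrrn4 meets the keratins.

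Promoters are shown for members of both patterns, since genes of a pattern rose and fell together on these arrays. Promoter sequence in RefSeq, build GRCm38.p6, matched 6 of the 10 members. The 250 bases before the start are printed 5′ to 3′ on the strand of the gene for 3 members of the first pattern, which vary together (Upk3b, Lrrn4 and Bnc1), and for Krt8 of the keratins. Capitals mark matches, on either strand, to 4 short motifs. The core bound by TEAD factors was searched as GGAATG. The GC box was searched as GGGCGG. For the box named TATA the letters were TATAAA. The core bound by the GATA family was searched as AGATAA. The motifs do not overlap in these stretches. The locations are chr5:136038246-136038495, plus strand, for Upk3b, chr2:132880863-132881112, minus strand, for Lrrn4, chr7:81992300-81992549, minus strand, for Bnc1, and chr15:102004343-102004592, minus strand, for Krt8.
Upk3b: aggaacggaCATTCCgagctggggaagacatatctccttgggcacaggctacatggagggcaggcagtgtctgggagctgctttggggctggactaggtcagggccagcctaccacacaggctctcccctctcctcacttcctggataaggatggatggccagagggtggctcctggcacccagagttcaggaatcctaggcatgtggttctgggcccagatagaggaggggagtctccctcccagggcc
Lrrn4: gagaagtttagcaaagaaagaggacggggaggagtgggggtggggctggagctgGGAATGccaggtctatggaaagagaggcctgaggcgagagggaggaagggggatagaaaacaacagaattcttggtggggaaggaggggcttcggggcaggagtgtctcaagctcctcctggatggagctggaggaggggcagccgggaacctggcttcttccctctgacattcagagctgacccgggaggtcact
Bnc1: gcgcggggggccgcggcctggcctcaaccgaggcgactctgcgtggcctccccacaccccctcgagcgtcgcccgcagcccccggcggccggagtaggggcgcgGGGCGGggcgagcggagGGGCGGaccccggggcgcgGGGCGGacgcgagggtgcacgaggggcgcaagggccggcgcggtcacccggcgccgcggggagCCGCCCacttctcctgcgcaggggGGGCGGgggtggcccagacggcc
Krt8: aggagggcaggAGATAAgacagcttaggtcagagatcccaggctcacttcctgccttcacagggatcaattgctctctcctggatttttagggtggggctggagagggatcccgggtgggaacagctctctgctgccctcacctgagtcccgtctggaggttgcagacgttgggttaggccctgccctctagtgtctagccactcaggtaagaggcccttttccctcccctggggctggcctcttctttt

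Upk3b and Lrrn4 each held 1 match to GGAATG, as did 1 of the 2 Gpm6a promoters listed, and 12.6% of the 32851 promoters of the table held it in the same window. Bnc1 held 5 matches to GGGCGG, found in 32.7% of promoters, in a stretch that was 83.6% G and C. Krt8 held 1 match to AGATAA, found in 9.99% of promoters, and Krt18 held none of the 4 motifs. The other Gpm6a promoter held 1 match to TATAAA, found in 12.4% of promoters. Krt8 and Krt18, whose products pair in the filament, lie on chromosome 15 and are read in opposite directions. A match describes letters in this window and nothing more.

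Other genes with the most similar pattern were ranked by Pearson's r with the mean of the 11 centred probes, over 38 arrays and 24479 probes well above background on at least 19 of them. The first was Muc16 (r = 0.93), a mucin of the mesothelial surface, then Pcnxl2 (0.93), Nkain4 (0.93), Rspo1 (0.92), a secreted Wnt agonist, and Aldh1a2 (0.92), which makes retinoic acid. BC021767 (0.92), Ccbe1 (0.92), Penk (0.91), Crym (0.91) and Lgals2 (0.90) completed the 10. Muc16, Nkain4, Rspo1 and Aldh1a2 were also in a list of 12 further mesothelial genes. The other members of that list that could be ranked lay lower: Krt7 at rank 30, Pdpn at 668, Krt14 at 1664, Cldn15 at 3797, Tbx18 at 5251 and Chst4 at 21177, the last with r = -0.33. Without the LFC arrays of days 6 and 10 the same 10 genes led, and with ranks 3 of the 10 remained (Nkain4, Crym and Lgals2).

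In that list of further mesothelial genes, 11 of 12 genes were tested by 14 probes in HFC minus LFC over 10 time points. All 14 were higher in HFC (50.8% of all probes were above 0), with a median of 1.33. Of the 14, 0 passed at an adjusted 0.05 (0% of all probes) and 5 at an unadjusted 0.05 (9.09% of all probes). Some lists of other tissues also lay on 1 side. All 16 macrophage, 13 epididymal and 9 epithelial probes tested were higher in HFC, with medians of 0.76, 2.14 and 0.95. Of the adipocyte probes 1 of 14 was higher, and of the endothelial probes 0 of 7. Other lists were mixed, with 8 of 12 stromal fibroblast, 10 of 12 immediate early and 1 of 3 bladder uroplakin probes higher. The 3 further mesothelial genes of smallest p were Pkhd1l1, with a difference of 1.56 and a standard error of 0.36, Krt14, with 1.73 and 0.57, and Pdpn, with 1.29 and 0.45, each with an adjusted p of 0.545 in limma. Krt14 is a keratin of stratified epithelium and Pdpn marks lymphatic endothelium as well as mesothelium. From weeks 3 to 18 all 14 further mesothelial probes were also above 0 (54.4% of all probes were), with a median of 0.65. In the mean of the doses minus HFC 1 of these 14 was (51.9% of all probes), with a median of -0.22. The mean level of the list moved with the surface members (r = 0.93 over 38 arrays) and less with the keratins (0.68).

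Genes of other tissues moved on the same arrays. Tcf21, a transcription factor gene of visceral fat, was at -6.42 on LFC day 6 and 0.87 on HFC day 6, and at -6.77 on LFC day 10 and 0.61 on HFC day 10. At week 6 it was at -1.79 in LFC, -4.36 in HFC, -6.28 in HF5, -8.56 in HF20 and -5.90 in HF75, against a median of 0.03 over 37 arrays. It was not well above background on LFC days 6 and 10 and on HF5 and HF20 of week 6. The mean of 4 visceral fat genes, Tcf21 among them, was -4.25 on LFC day 6 and -2.42 on HFC day 6, and -4.66 and -2.31 at day 10. At week 6 that mean did not follow Tcf21: it was -4.43 in LFC, -4.58 in HFC, -4.76 in HF5, -4.61 in HF20 and -4.37 in HF75. The mean of 3 subcutaneous fat genes (Tbx15, Shox2 and En1) was -4.89 on LFC day 6 and -8.05 on HFC day 6, -5.17 and -8.15 at day 10, and between -5.16 and -4.17 on the 5 arrays of week 6, LFC included at -5.06, against a median of -7.15 over 38 arrays. Of these 3 genes 1 was well above background on 19 or more arrays. Ucp1, which marks brown and beige fat, was at 3.83 on LFC day 6 and 5.11 on LFC day 10, against -2.46 and -5.05 on the HFC arrays, and at 6.93 on HF5 week 12. The mean of 6 skeletal muscle genes was 1.86 on LFC day 6 and -3.34 on HFC day 6, and between 1.66 and 4.51 on the 5 arrays of week 6. The part of each of these in the low member levels was not tested.

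The epididymis lies against this fat pad and its lining is made of keratin-rich epithelium. The mean level of 11 epididymal genes was -6.03 on LFC day 6 and 1.34 on HFC day 6, -6.18 and 3.59 at day 10, and -7.71, -7.71 and -7.50 on the HF5, HF20 and HF75 arrays of week 6, against -1.63 on LFC week 6 and -3.26 on HFC week 6, the array with the lowest mean of the surface members. The mean of 8 epithelial genes that are no members, among them Epcam and Cdh1, ran from -6.85 on LFC week 12 to 1.59 on HF75 week 3. On LFC week 12 the keratins had their separate low point. On HF75 week 3, a dim array, Krt8 and Krt18 had their highest levels, while Krt19 was highest on HFC day 6. Over 38 arrays the mean of the keratins had r = 0.82 with these epithelial genes and 0.69 with the epididymal genes, against 0.38 and 0.39 for the mean of the 5 surface genes. With Tcf21 the keratins had r = 0.85 and the surface genes 0.83, over 37 arrays. With the mean of the visceral fat genes, Tcf21 among them, these were 0.54 and 0.68 over 38 arrays. On LFC week 12 the adipocyte list stood at 4.77 and on HFC week 9 at 5.10, against a median of 1.81. Whether epithelium of the epididymis contributed to the keratin signal was not tested.

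**Figure D5:**
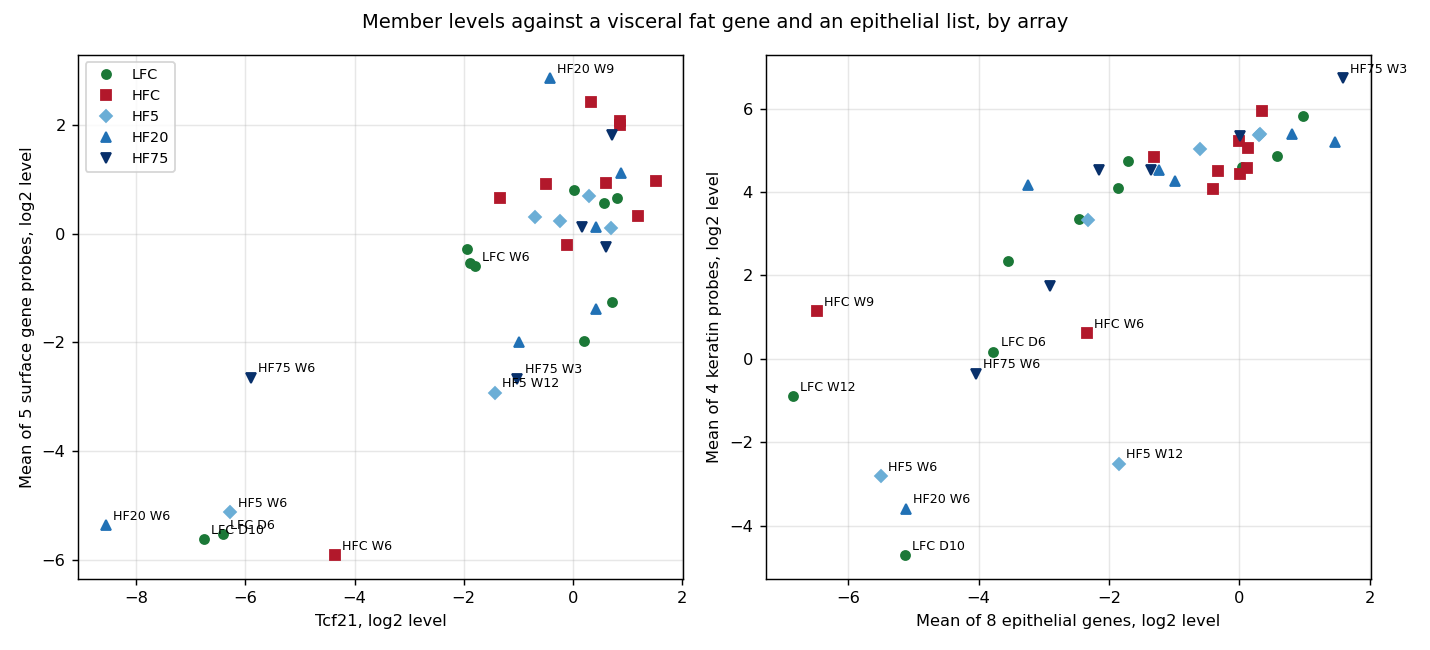
Left, mean level of the 5 surface gene probes against Tcf21 on 37 arrays; right, mean level of the 4 keratin probes against the mean of 8 epithelial genes on 38 arrays, both in log2, with 1 point per array coloured by diet and selected arrays named. LFC days 6 and 10 and the high fat arrays of week 6 lie at the lower left of the left panel, HF75 week 6 above the others, and HF75 week 3 lies at the upper right of the right panel.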

How the data were processed

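Each of the 38 samples was hybridised to 1 Agilent array, 1 for each diet and time point. The deposited values are spot intensities, background-subtracted and detrended by Agilent Feature Extraction (10.5.1.1 per the file headers, 9.1 per the submitters' processing notes). Here log2 of the deposited processed intensity was taken, the log2 75th percentile of the array was subtracted, outlier spots and control spots were left out, and spots of 1 probe were averaged. The week 9 arrays of the doses hold rounded values. A table of fold changes by the authors was not used. Tests were made with limma 3.58.1 in R 4.3.3. A probe was tested if it was well above background on at least 0.5 of the arrays of any diet in the fit. A probe could therefore enter through the diet where it was high. Time point was a block, except in the slopes within LFC and within HFC, which had no block. Benjamini-Hochberg adjustment was over all probes tested. The procedure was tested on simulated data. Every member probe was tested in each comparison and counted, with values given for some. Also named were the 3 further mesothelial genes of smallest p and the 10 genes of most similar pattern. The members and lists were chosen with earlier results of these data known. Alternatives changed the scaling, background correction, filter, block, brightness covariate, test, dose label and time points. The number of arrays limits the precision.

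Arrays of 1 time point were paired because the time label is shared, and LFC and HFC were scanned on the same day at all 10 time points and shared a slide at 5. The doses did not always share the scan day of HFC. HF20 and HF75 did not at weeks 3 and 18, HF75 did not at week 6, and no dose did at week 9. On those arrays dose and scan day cannot be told apart.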

Additional observations from a re-analysis of the deposited data

Results flagged for a closer look

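In 10 of 55 groups, each a probe within a diet, the lowest array stood farther from the rest, relative to the range, than Dixon's critical value. Chance gives about 1 in 20, which is 2.75 groups. Probes of 1 array are not independent of each other, so these 10 groups come from 3 arrays.

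The HFC array of week 6 was the low one in 6 groups. The gap to the nearest HFC array was 0.72 of the range for Msln, 0.679 for Upk3b, 0.669 for Upk1b, 0.705 for Lrrn4, 0.724 for Wt1 and 0.669 for Bnc1. The keratins and Gpm6a had no such gap on that array.

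The HF20 array of week 6 was the low one in 3 groups, all keratin probes, with gaps of 0.843 and 0.825 for the Krt8 probes and 0.819 for Krt18. The HF5 array of week 6 was the low one for Bnc1, with a gap of 0.827.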

How the results depend on the processing

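Of 975 values computed under alternatives, 943 kept their direction and their side of the threshold, or stayed within the spread. Another 25, all of single probes, changed sign, and 7 moved. Medians over members that changed sign but stayed within the spread are among the 943. The median in HFC minus LFC over weeks 3 to 18, 0.33, fell as low as -0.33. That of the 4 high fat diets minus LFC, -0.13, rose as high as 0.99. The fall from 1.78 to 0.21 in HFC minus LFC over 10 time points also counts among the 943. No member probe passed an adjusted 0.05 in limma in any comparison under any alternative run. The cause of the changes below was not tested. Beside the values below, the methods' t-test called 0 probes after Benjamini-Hochberg adjustment in every comparison.

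In HFC minus LFC over 10 time points, the brightness covariate turned Upk1b to -0.19, Msln to -0.20 and Upk3b to -0.075, and leaving out days 6 and 10 turned the Krt8 probes to -0.15 and -0.10. With 1 time point left out at a time, the median over members ran from 1.08 without day 10 to 2.47 without week 6. It was 0.21 with the brightness covariate, 0.30 without days 6 and 10, and was 1.098 with slide as a random block. In the mean of the doses minus HFC, the brightness covariate turned Msln to 0.015 and Krt19 to 0.16, and scan day as the block turned Krt18 to -0.37. Leaving out weeks 9 and 12 gave Upk1b 0.019, Msln 0.19, Krt18 -0.29 and Krt19 0.081. Leaving out HF5 week 12 and HF75 week 3, an alternative chosen after seeing the data, gave Msln 0.019 and Krt19 0.17. Leaving out 1 week at a time gave ranges of -0.55 to 0.58 for Krt18, -1.31 to 0.31 and -1.28 to 0.38 for the Krt8 probes, -0.61 to 0.12 for Upk1b, -0.98 to 0.36 for Msln and -0.34 to 0.38 for Krt19.

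Against HFC, leaving out 1 week at a time moved the median from -1.12 to -0.26 in HF5, from -0.996 to -0.079 in HF20 and from -0.84 to 0.21 in HF75. The median slope of the HFC minus LFC difference became 0.093 per week without days 6 and 10 and 0.060 without those days and week 6, the second chosen after seeing the data, and the median slope within LFC became -0.040 and -0.039. Over all probes, quantile scaling called 1 probe in the mean of the high fat diets minus LFC, and leaving out 1 time point called 0 to 1 in the slope within HFC, the 1 without week 18. Ranks in place of Pearson's r left 3 of the 10 most similar genes. Without the replicate block, that is with no pairing by time point, the median in HFC minus LFC stayed at 1.78, and 0 probes were called.

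Brightness sets a limit: on the dimmest array, HF5 week 12, 9 of 11 member probes were not well above background. Their bound from above there is not their own level but -1.68, the lowest level that was well above background on that array.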
